A study of Mus musculus with 45 samples.

Results

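The Egr transcription factor genes Egr1, Egr2, Egr3 and Egr4 and the genes of their corepressors, Nab1 and Nab2, were followed through induction of synaptic activity and its interruption in mouse hippocampal neurons. The 6 genes were taken by symbol from the 54532 genes of the count table, by a rule that uses no measured value. They were chosen with earlier results of these data known. RNA was sequenced from 45 libraries, made of 9 conditions in each of 5 culture preparations (numbered 1, 3, 6, 7 and 8) of primary hippocampal cells from newborn C57Bl/6N mice, which had received cytosine arabinoside, an inhibitor of dividing cells. Every condition except the untreated control was kept until harvest in 50 µM bicuculline (Bic), a blocker of inhibitory GABA type A receptors that sets off synchronous bursts of action potentials. Cultures were harvested after 0.5, 1 or 2 h of Bic alone. The short protocol (SP) began with 0.5 h of Bic, after which, for another 0.5 h, 1 µM tetrodotoxin (TTX), a sodium channel blocker that stops firing, was added, alone or together with 30 µM NMDA (TTX/NMDA), which in the bath reaches NMDA receptors outside synapses as well. The long protocol (LP) began with 1 h of Bic, and the further 1 h was spent in TTX, in TTX/NMDA, or in 50 µM TBOA, an inhibitor of glutamate transporters that lets glutamate spill over while firing goes on. Each intervention was therefore compared with Bic of the same total length, 1 h for SP and 2 h for LP. The difference between TTX and Bic is called the passive effect (loss of firing) and that between TTX/NMDA and TTX the active effect (NMDA receptor signaling added to loss of firing). NMDA without TTX, and TBOA in the short protocol, were not analysed here.

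In the annotation of GRCm38 (GENCODE release M21), Egr1 (ENSMUSG00000038418) lies on chromosome 18 at 34859823 to 34864984 on the plus strand. Egr2 (ENSMUSG00000037868) lies at chr10:67535475-67542188 and Egr3 (ENSMUSG00000033730) at chr14:70077203-70082614, also on the plus strand. Egr4 (ENSMUSG00000071341) lies at chr6:85511121-85513589, Nab1 (ENSMUSG00000002881) at chr1:52457294-52500679 and Nab2 (ENSMUSG00000025402) at chr10:127660918-127668568, all on the minus strand. Nab2 shares 40 bases with Stat6, 1646 bases with the antisense gene Gm16229 and 1668 bases with Nemp1, each on the opposite strand, and the reads were counted by strand.

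Egr proteins are zinc finger transcription factors that bind GC-rich DNA, and their genes are immediate early genes, transcribed within minutes of stimulation without new protein synthesis. In neurons, calcium entry through synaptic NMDA receptors and calcium channels reaches these genes through the ERK kinase cascade, which phosphorylates ternary complex factors such as ELK1 bound beside serum response factor (SRF) at CArG boxes, and through CREB at cyclic AMP response elements. Egr1 is widely used as an activity marker and is needed for the late phase of synaptic plasticity, Egr2 is best known for myelination by Schwann cells, and Egr3 for muscle spindle development and for control of Arc. Nab1 and Nab2 bind an inhibitory domain that Egr1, Egr2 and Egr3 have and Egr4 lacks, and repress transcription there, in part through the NuRD chromatin complex. Nab2 can itself be induced by Egr proteins, which closes a feedback loop.

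Promoter windows of RefSeq (GRCm38.p6), each 250 bases before and 50 after a start site, were found for 4 of the 6 genes: Egr2, Egr4, Nab1 and Nab2, but not for Egr1 and Egr3. They were searched on both strands for the CArG box, the cyclic AMP response element TGACGTCA, its core CGTCA (which the full element contains), the Egr sites GCGTGGGCG and GCGGGGGCG, and the ETS core CCGGAA. Of all 32851 promoter windows, 1.63% held a CArG box, 1.79% the full element, 20.8% its core, 0.612% the Egr site with T, 2.91% that with G and 14.9% the ETS core. The stretches shown are those that hold the sites named in the account of the pathway, and capitals mark the sites. The Egr2 stretch, chr10:67537719-67537868 on the plus strand, runs up to the base before a start site, and holds a CArG box between a pair of CGTCA cores, of which the first lies on the other strand and reads TGACG.
Egr2 upstream: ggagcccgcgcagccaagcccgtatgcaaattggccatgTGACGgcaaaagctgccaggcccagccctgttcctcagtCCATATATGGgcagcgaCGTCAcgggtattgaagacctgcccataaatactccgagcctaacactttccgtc
The CArG box began 72 bases before the start site, and the cores 111 and 55 bases before it. Egr2 had 5 windows in all, of which that ending at 67537615 held another CArG box, 72 bases before its own start site, and 3 matches to the ETS core. The Egr4 stretch, chr6:85513590-85513789 on the minus strand, held the core CGTCA at 177 and 109 bases before the start site and no CArG box within the window.
Egr4 upstream: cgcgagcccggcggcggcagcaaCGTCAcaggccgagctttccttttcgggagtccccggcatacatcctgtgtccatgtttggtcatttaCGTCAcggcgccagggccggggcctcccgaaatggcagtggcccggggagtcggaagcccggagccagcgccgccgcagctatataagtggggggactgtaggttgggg
The Nab1 window held 1 core CGTCA, 123 bases before the start site, and 3 Egr sites, which lie inside the exon of a longer GENCODE transcript on the minus strand and are shown with 9 bases on either side.
Nab1 site at chr1:52500572-52500598: ccccgcggcCGCCCACGCcgggatctg
Nab1 site at chr1:52500540-52500566: ctcggccgcGCGTGGGCGggagccgga
Nab1 site at chr1:52500469-52500495: cggggcgggGCGGGGGCGgcggaggtg
None of the searched letters stood in the Nab2 window, chr10:127666654-127666953.

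Library depth ran from 11316580 to 81129276 assigned reads, with a median of 26239614. Every gene of the 6 had reads in all 45 libraries, from 104 reads for Egr2 in its lowest library to 107578 for Egr1 in its highest, and all 6 passed the filter of at least 1 read in every comparison. Levels are given as CPM, the reads of a gene scaled to library size with TMM factors over the 45 libraries, in the order of preparations 1, 3, 6, 7 and 8, and a mean is followed by its SD (n = 5). The 9 neuronal markers summed to between 7279 and 9778 CPM, with Map2, Snap25 and Syp among the highest, whereas those of microglia stayed between 3.03 and 5.79 CPM and those of endothelial cells between 0.890 and 3.00 CPM. Astrocyte markers summed to between 353 and 1345 CPM, with Gfap and Slc1a3 the highest. The Schwann cell markers, relevant to Egr2, summed to between 1.22 and 2.76 CPM. In RNA from whole cultures, fewer cells of a type and less RNA per cell cannot be told apart.

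Bic raised all 4 Egr genes at every time, whereas the Nab genes moved later and far less. At 0.5 h, 4 of the 6 genes were called higher than control (edgeR quasi-likelihood test, adjusted p under 0.05), against 0.289% of the 30133 genes tested. The same 4 were called at 1 h, against 0.965% of genes, and all 6 at 2 h, against 4.24%. With 5 preparations an exact two-sided sign-flip test cannot go below p = 0.0625, and each Egr gene reached that value at each time, being higher than its own control in 5 of 5 preparations.

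Egr1, the most abundant of the 4 in control per kilobase of exon, stood at 186, 85.5, 106, 88.02 and 182 CPM in control and at 1665, 1323, 1712, 1338 and 1130.2 CPM after 2 h of Bic. Preparations 1 and 8 had the highest control levels, and the groups did not overlap. Its mean went from 129.5 ± 50.3 CPM in control to 513 ± 58.5 CPM at 0.5 h, 1012 ± 128 CPM at 1 h and 1434 ± 247 CPM at 2 h, a log2 fold change over control of 3.46 ± 0.16 (SE) at 2 h (adjusted p = 2.98e-18). Between 1 and 2 h, where 4 of the 6 genes (Egr1, Egr3, Egr4 and Nab1) were called higher, against 2.53% of genes, Egr1 still rose, by 0.49 ± 0.09 on the log2 scale (adjusted p = 0.000186), in 4 of 5 preparations.

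Egr4 had the largest fold rise of the 6 genes at 0.5 and 2 h of Bic, and Egr2 at 1 h. At 0.5 h their order depended on the preparations used. With each preparation left out in turn, the log2 change ran from 2.33 to 2.77 for Egr2 and from 2.51 to 2.66 for Egr4. Egr4 stood at 49.5, 27.8, 34.2, 34.7 and 44.1 CPM in control and at 901, 715, 1006, 676 and 683 CPM at 2 h. No library at 2 h came near the control range, and preparation 6 was highest. The mean rose 5.93-fold by 0.5 h, 13.4-fold by 1 h and 20.9-fold by 2 h (log2 fold change 4.39 ± 0.13, adjusted p = 4.76e-24). Per kilobase of exon, Egr4 passed from 17.7 CPM in control, below the 28.9 of Egr1, to 371 at 2 h, above the 319.7 of Egr1.

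Egr2 was the scarcest member in control, at 9.31, 4.71, 4.94, 4.68 and 6.40 CPM, and reached 88.1, 68.7, 87.1, 82.1 and 105 CPM at 1 h and 129, 106, 126, 97.1 and 72.7 CPM at 2 h. The control libraries all lay far below the others, but the 1 h and 2 h ranges overlapped, and preparation 8 was higher at 1 h than at 2 h. Its fold rise at 2 h, 17.7-fold (log2 fold change 4.20 ± 0.15, adjusted p = 6.4e-22), was next to that of Egr4. The step from 1 to 2 h, 0.30 ± 0.10 on the log2 scale, did not pass (adjusted p = 0.106), but did without preparation 8 (0.49, adjusted p = 3.9e-08).

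Egr3 rose least of the 4 Egr genes. It stood at 98.9, 67.4, 75.6, 81.6 and 106 CPM in control, 142, 157, 182, 162 and 231 CPM at 0.5 h and 671, 521, 576, 522 and 583 CPM at 2 h. The 3 ranges did not overlap, and the level at 2 h also lay wholly above that at 1 h. The mean rose 2.04-fold by 0.5 h and 6.70-fold by 2 h (log2 fold change 2.73 ± 0.10, adjusted p = 3.2e-21). Its step from 1 to 2 h, 0.69 ± 0.09, stood beside that of Egr4, 0.63 ± 0.11.

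**Figure D1:**
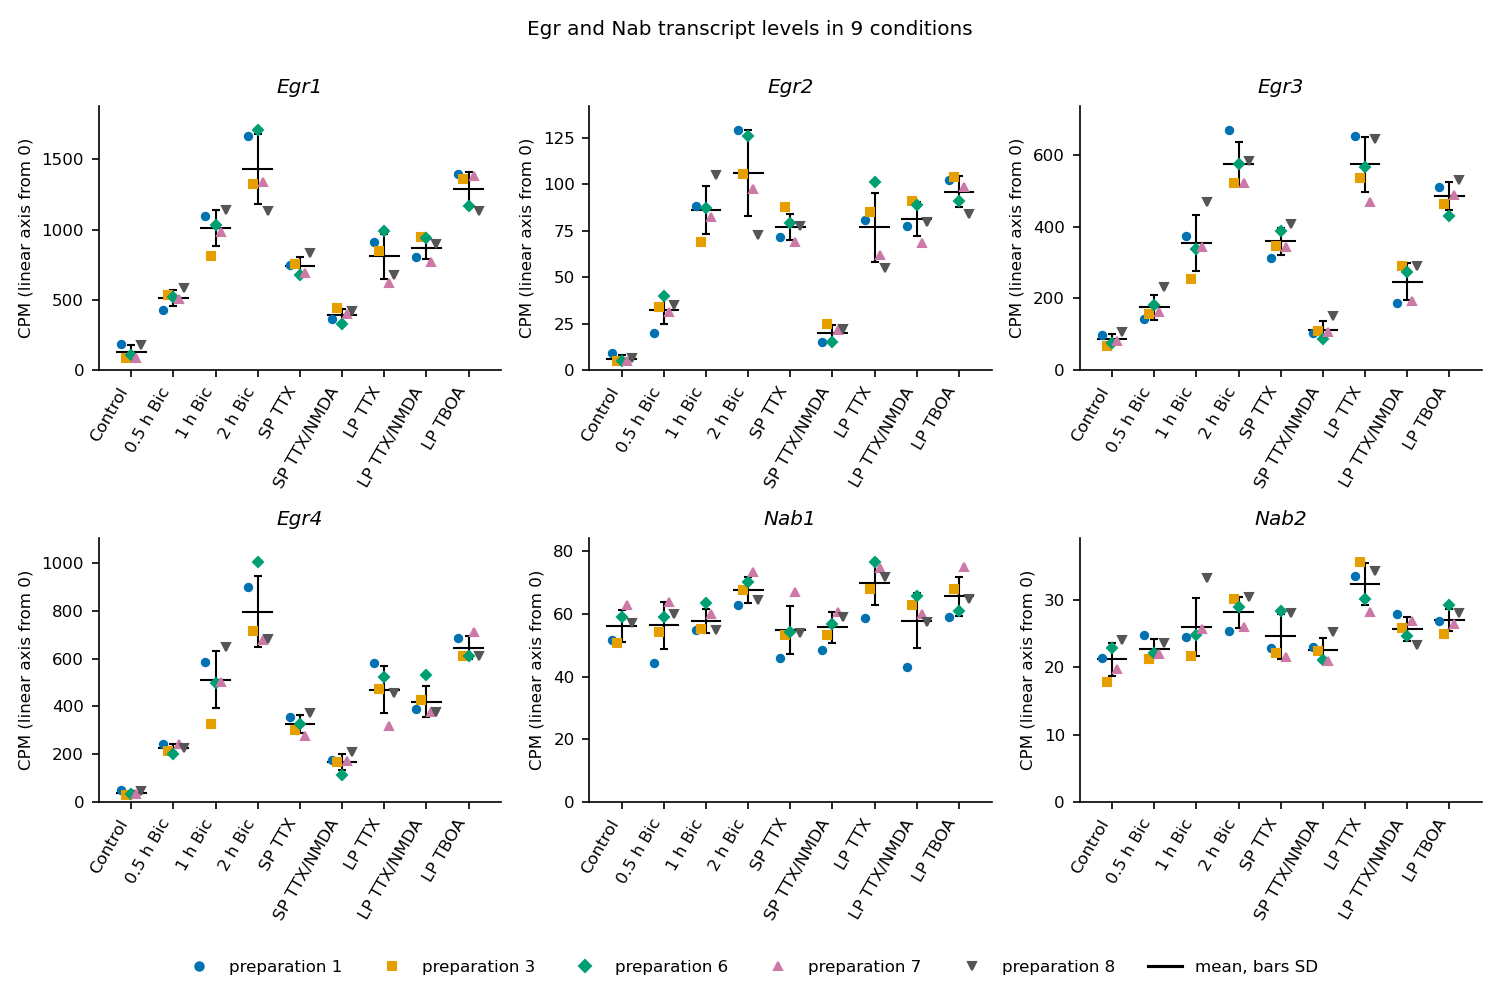
Levels of the 4 Egr and 2 Nab genes in CPM (linear axes from 0) in each of the 9 conditions, with a symbol for each of the 5 preparations, the mean as a black line and the SD as bars. The 4 Egr genes climb with time in Bic and are lowest after control in SP TTX/NMDA, Egr3 alone among them has the same mean in LP TTX as at 2 h of Bic, and the Nab genes move within a narrow range.

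The corepressor genes moved little, and the call of Nab1 between 1 and 2 h was lost without preparation 1, 3 or 7 (adjusted p between 0.109 and 0.22). It was also lost with all 45 libraries in the fit (adjusted p = 0.212). Nab1 stood at 51.6, 50.7, 59.1, 62.8 and 57.1 CPM in control and 62.8, 67.7, 70.1, 73.4 and 64.3 CPM at 2 h, ranges that met at 62.8 CPM. It was higher at 2 h in 5 of 5 preparations, by 0.25 ± 0.08 on the log2 scale (adjusted p = 0.0377), a call that was lost without preparation 1, 3, 6 or 7 (adjusted p between 0.0819 and 0.0923) and with all 45 libraries in the fit (0.0572). Nab2 stood at 21.4, 17.9, 22.8, 19.7 and 23.996 CPM in control and 25.4, 30.1, 28.95, 25.95 and 30.4 CPM at 2 h, without overlap. Its mean was 1.33-fold that of control (log2 fold change 0.40 ± 0.09, adjusted p = 0.0019). At 1 h Nab2 was 0.29 ± 0.10 above control, which passed with the preparation as a block (adjusted p = 0.0303) and not without it (adjusted p = 0.318).

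In the short protocol, TTX for 0.5 h left the 4 Egr genes above the level at which it was added, and bath NMDA took all 4 below it. Against 1 h of Bic, 2 of the 6 genes were called lower in SP TTX, Egr1 and Egr4, where 0.252% of 31765 genes were. Egr1 stood at 1101, 811, 1031, 982 and 1137 CPM at 1 h of Bic and at 747, 758, 678, 692 and 837 CPM in SP TTX. Each preparation fell, and the ranges overlapped slightly through preparation 8 in TTX and preparation 3 in Bic. The changes were -0.45 ± 0.08 for Egr1 (adjusted p = 0.00117) and -0.65 ± 0.10 for Egr4 (adjusted p = 0.000199) on the log2 scale. These calls depended on the fit: with a filter on low counts neither passed (adjusted p = 0.0678 and 0.137), and with all 45 libraries in the fit only Egr4 did. Egr2 at -0.17 ± 0.08 and Egr3 at 0.01 ± 0.09 did not pass.

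Compared with 0.5 h of Bic, when TTX was added, SP TTX was higher for the 4 Egr genes in 5 of 5 preparations and without overlap of the ranges (4 of 6 genes called higher, against 0.296% of all genes). The gain was 1.25 ± 0.09 for Egr2 and 1.03 ± 0.09 for Egr3 on the log2 scale, and 0.53 ± 0.08 for Egr1 and 0.52 ± 0.08 for Egr4. With all 45 libraries in the fit the gains of Egr1 and Egr4 did not pass (adjusted p = 0.0777 and 0.0796).

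Adding NMDA to TTX lowered the 4 Egr genes in 5 of 5 preparations each, with no overlap (4 of 6 genes called lower, against 3.32% of all genes). Egr2 stood at 71.3, 87.4, 78.99, 68.95 and 77.7 CPM in SP TTX and at 15.3, 24.9, 14.9, 21.4 and 22.1 CPM in SP TTX/NMDA, a log2 change of -1.97 ± 0.10 (adjusted p = 9.83e-16). Egr3 stood at 314, 346, 389, 343 and 407 CPM against 102, 109.6, 85.5, 106 and 152 CPM, a change of -1.70 ± 0.10 (adjusted p = 3.54e-14). For all 4 Egr genes the fall was larger than the gain between 0.5 h of Bic and SP TTX, and Egr3 came down to a range that overlapped that of control. The changes of Egr1, -0.93 ± 0.08, and Egr4, -0.98 ± 0.10, were smaller and also passed (adjusted p = 2.39e-10 and 2.36e-08). In the same libraries neuronal markers summed to between 7796 and 8451 CPM against 8034 to 9277 CPM in SP TTX, with 3 of 9 called lower and 1 higher, while 0 of 5 astrocyte, 0 of 5 oligodendrocyte and 0 of 3 fibroblast markers were called by edgeR in either direction (1 astrocyte marker and 0 of the others at an unadjusted p under 0.05). Mitochondrial genes took 0.900 to 1.37% of reads against 0.665 to 1.02%, a higher share in 5 of 5 preparations. The part of these measures in the differences of the Egr genes was not tested.

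The level after SP TTX/NMDA was also below that at 0.5 h of Bic, before the drugs were added, for the 4 Egr genes (4 of 6 called lower, against 2.58% of all genes). The differences ran from -0.72 ± 0.13 for Egr2 to -0.41 ± 0.08 for Egr1 on the log2 scale, in 5 of 5 preparations each, with ranges that overlapped. With all 45 libraries in the fit those of Egr1 and Egr4 did not pass (adjusted p = 0.125 and 0.0711). In the same comparison 2 of 5 astrocyte markers were called higher, where 194 of 30883 genes were, and 0 lower. Of 9 neuronal markers 3 were called lower and 0 higher. Mitochondrial genes took 0.900 to 1.37% of reads against 0.716 to 0.982% at 0.5 h of Bic. The part of these measures in the Egr differences was not tested. Against control, where 0.703% of genes were called higher, Egr1, Egr2 and Egr4 were still 3.02-fold, 3.28-fold and 4.38-fold as high, without overlap. Egr3 was 1.29-fold as high with overlapping ranges, a difference that passed with the preparation as a block (adjusted p = 0.0246) and not without it (adjusted p = 0.108).

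The Nab genes had no call between the interventions of the short protocol, or against 0.5 or 1 h of Bic, without a block. The differences between SP TTX/NMDA and SP TTX were 0.02 ± 0.08 for Nab1 and -0.14 ± 0.09 for Nab2. Against 1 h of Bic, SP TTX/NMDA had the 4 Egr genes called lower, where 3.41% of genes were. Nab2 was lower in that comparison by 0.20 ± 0.09 on the log2 scale, a difference called with the preparation as a block (adjusted p = 0.0217) and not without it (adjusted p = 0.291).

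In the long protocol, the mean of Egr3 after 1 h of TTX equalled that with continued firing, while Egr1, Egr2 and Egr4 were lower. The 3 genes called lower of 6 compare with 1.62% of 31944 genes. Egr3 stood at 654, 535, 566, 469.9 and 645 CPM in LP TTX, a mean of 574 ± 77.3 CPM against 574 ± 60.99 CPM at 2 h of Bic. The difference was -0.01 ± 0.08 on the log2 scale (adjusted p = 0.961). Against the 1 h of Bic that came before TTX, 3 of the 6 genes were called higher, Egr3, Nab1 and Nab2, where 4.34% of genes were, and 1 lower, Egr1, where 2.85% were. The call for Egr1 was lost without preparation 7 or 8 (adjusted p = 0.0621 and 0.066), and that for Nab2 without preparation 1 or 3 (0.0728 and 0.189). With a filter on low counts the Nab2 call was lost too (0.0618), and with all 45 libraries in the fit that for Nab1 (0.0514). Egr3 was higher by 0.68 ± 0.10 (adjusted p = 2.81e-06), in 5 of 5 preparations.

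Egr1 stood at 912, 847, 992, 617 and 679 CPM in LP TTX and was lower than at 2 h of Bic by 0.83 ± 0.10 on the log2 scale (adjusted p = 1.15e-06), with no overlap. Egr4 stood at 579.5, 473, 523, 319 and 456 CPM and differed by -0.77 ± 0.11 (adjusted p = 1.19e-05), again with no overlap. Egr2 differed by -0.48 ± 0.12 (adjusted p = 0.0147), in 5 of 5 preparations with overlapping ranges, and did not pass by DESeq2 (adjusted p = 0.0937), with a filter on low counts (0.082) or without preparation 1 (0.0791). All 3 stayed far above control, from 6.25-fold for Egr1 to 12.8-fold for Egr2.

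The Nab genes were at their highest mean levels in LP TTX, where all 6 genes were called higher than control, against 4.33% of genes. Nab2 stood at 33.5, 35.7, 30.1, 28.2 and 34.2 CPM there, 1.53-fold the control mean, a log2 change over control of 0.60 ± 0.09 (adjusted p = 9.08e-06) with no overlap. It was higher than at 2 h of Bic in 5 of 5 preparations by 0.19 ± 0.08, called with the preparation as a block (adjusted p = 0.0161) and not without it (adjusted p = 0.185). Nab1 was 0.30 ± 0.08 above control (adjusted p = 0.0193, or 0.0739 without preparation 6) and 0.04 ± 0.07 from 2 h of Bic.

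Bath NMDA in the long protocol lowered Egr3, Nab1 and Nab2 relative to LP TTX, and gave no call for Egr1, Egr2 or Egr4. The 3 genes called lower of 6 stand against 11.8% of all genes, and 0 were called higher by edgeR or DESeq2 (0 at an unadjusted p under 0.05), against 11.6%. These shares are over genes with at least 1 read, also where lists are set beside them. With a filter on low counts, 3736 of 16399 genes were lower and 4090 higher. Egr3 stood at 187, 289.9, 274, 193 and 290.4 CPM in LP TTX/NMDA, below every LP TTX library, a log2 change of -1.23 ± 0.11 (adjusted p = 3.69e-10). Egr1 stood at 804, 947, 943, 767 and 901 CPM, all within the LP TTX range, and changed by 0.10 ± 0.09 (adjusted p = 0.445). Egr2, at 0.07 ± 0.11, and Egr4, at -0.17 ± 0.11, did not pass either, though Egr4 did without preparation 7 (-0.25, adjusted p = 0.0436).

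Nab2 stood at 27.9, 25.8, 24.6, 26.8 and 23.3 CPM in LP TTX/NMDA, below every LP TTX library, and its log2 change was -0.34 ± 0.08 (adjusted p = 0.00195). Nab1 changed by -0.29 ± 0.09 (adjusted p = 0.0188), in 5 of 5 preparations, and did not pass with a filter on low counts (adjusted p = 0.0565). Against 2 h of Bic, LP TTX/NMDA had 5 of the 6 genes called lower, against 11.1% of genes, from -1.23 ± 0.10 for Egr3 and -0.94 ± 0.10 for Egr4 to -0.24 ± 0.08 for Nab1, whose call was lost without preparation 1 or 7 (adjusted p = 0.187 and 0.0928) and with DESeq2, a filter on low counts or all 45 libraries in the fit (0.0621 to 0.0848). Against the 1 h of Bic before the drugs, 3 of 6 were called lower, Egr1, Egr3 and Egr4, where 10.2% of genes were, and with the preparation as a block Egr1 (adjusted p = 0.0592) and Egr4 (adjusted p = 0.133) did not pass. Against control, the 4 Egr genes and Nab2 were called higher, 5 of 6 where 10.9% of genes were, from 13.5-fold for Egr2 to 2.88-fold for Egr3 and 1.21-fold for Nab2, whose call (adjusted p = 0.0359) was lost without preparation 1, 3 or 7. Other measures moved in the same libraries. Astrocyte markers summed to between 651 and 1345 CPM in LP TTX/NMDA and between 368 and 755 CPM in LP TTX, and 5 of 5 were called higher. Fibroblast markers summed to between 65.7 and 137 CPM against 53.5 to 96.6 CPM, with 3 of 3 called higher, and oligodendrocyte markers to between 47.5 and 108 CPM against 42.6 to 66.0 CPM, with 2 of 5 called higher. Neuronal markers summed to between 7279 and 7959 CPM against 8726 to 9778 CPM, with 3 of 9 called lower, and mitochondrial genes took 1.40 to 1.87% of reads against 0.74 to 0.94%. Their part in the differences of the Egr and Nab genes was not tested.

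**Figure D2:**
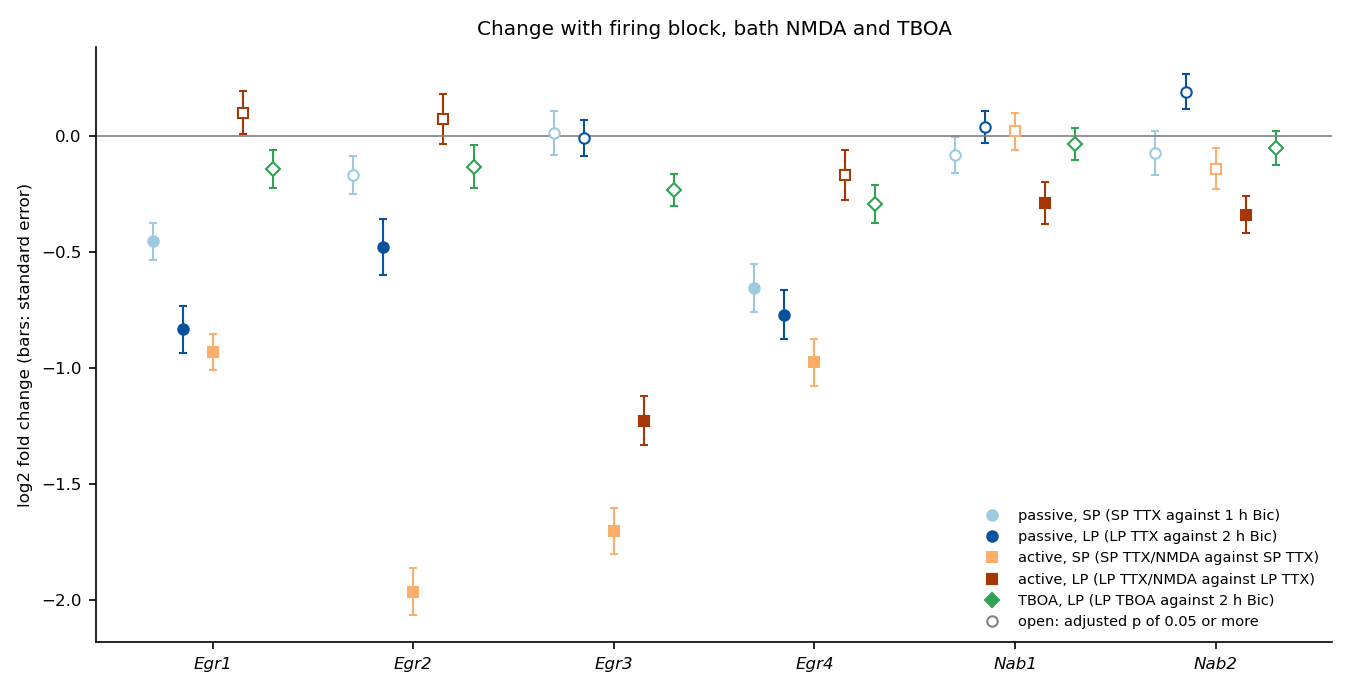
Log2 fold changes of the 6 genes (y axis, bars are standard errors) for the passive effect (circles), the active effect (squares) and TBOA (diamonds), with the short protocol in the paler and the long protocol in the darker shade, and open symbols where the adjusted p was 0.05 or more. The active effect of Egr2 goes from -1.97 in SP to 0.07 in LP, that of Egr3 from -1.70 to -1.23, and the passive effect of Egr3 is near 0 in both.

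The difference between the protocols was tested directly, as the LP effect minus the SP effect. For the active effect it passed for Egr1 (1.05 ± 0.14, adjusted p = 1.83e-06), Egr2 (2.05 ± 0.17, adjusted p = 9.04e-11) and Egr4 (0.82 ± 0.17, adjusted p = 0.00393) on the log2 scale by edgeR. These are 3 of 6 genes, against 0.722% of 35027 genes. For Egr3 the difference was 0.49 ± 0.17, which did not pass without a block (adjusted p = 0.123) and did with the preparation as a block (adjusted p = 0.0282), without preparation 1 (0.0456) or without preparation 8 (0.00255). Nab1 differed by -0.29 ± 0.13, called with the preparation as a block (adjusted p = 0.0113) and not without it (adjusted p = 0.302). For the passive effect, 0 of the 6 genes passed by edgeR, with or without the block, or by DESeq2. At an unadjusted p under 0.05 the count was 1, Egr1, at -0.39 ± 0.14 (adjusted p = 0.677).

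With glutamate uptake blocked by TBOA for 1 h during firing, no Egr or Nab gene was called different from Bic alone without a block. Against 2 h of Bic, 0 of the 6 genes were called by edgeR or DESeq2 in either direction, against 0.0536% of genes called higher and 0.549% called lower, and 2, Egr3 and Egr4, had an unadjusted p under 0.05. Egr3 stood at 509.7, 465, 430.4, 487 and 531 CPM in LP TBOA and was lower in 5 of 5 preparations, by 0.23 ± 0.07 on the log2 scale, which passed with the preparation as a block (adjusted p = 0.0473) or without preparation 8 (0.012) and otherwise not (adjusted p = 0.162). Egr4 differed by -0.29 ± 0.08 (adjusted p = 0.116), and passed without preparation 7 (0.00741) or preparation 8 (0.00058). Egr1 stood at 1394, 1363, 1166, 1380.2 and 1130.2 CPM and differed by -0.14 ± 0.08.

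Against LP TTX, 3 of the 6 genes were called higher in LP TBOA, where 0.759% of genes were, Egr1 (0.68 ± 0.09), Egr4 (0.46 ± 0.09) and Egr2 (0.33 ± 0.10), and 1 lower, where 3.5% of genes were, Nab2 (-0.26 ± 0.08). The call for Egr2 was lost without preparation 7 (adjusted p = 0.145), with DESeq2 (0.103), with a filter on low counts (0.135) and with all 45 libraries in the fit (0.303). That for Nab2 was lost without preparation 1, 3 or 8 (adjusted p between 0.0745 and 0.371), with RLE scaling (0.0606), with a filter on low counts (0.0649) and with all 45 libraries (0.106). Egr3 differed by -0.24 ± 0.08, which passed with the preparation as a block (adjusted p = 0.048) or without preparation 7 (0.0156) and otherwise not (adjusted p = 0.068). LP TBOA and LP TTX/NMDA differed in the Egr genes as well. All 4 were called higher with TBOA than with TTX/NMDA, against 7.99% of all genes, in 5 of 5 preparations each. The difference was 0.98 ± 0.10 for Egr3 (adjusted p = 1.17e-09), 0.63 ± 0.08 for Egr4 and 0.57 ± 0.08 for Egr1, each without overlap, and 0.25 ± 0.08 for Egr2 with overlap (adjusted p = 0.0209, lost without preparation 1 or 7 at 0.143 and 0.142, and at 0.286 with all 45 libraries in the fit). Nab1 was 0.19 ± 0.09 higher, called with the preparation as a block (adjusted p = 0.0329) or without preparation 6 (0.0332) and otherwise not (adjusted p = 0.149). The comparison shares the LP TTX/NMDA libraries with the active effect. In it 5 of 5 astrocyte markers were called lower with TBOA, where 2811 of 32684 genes were. Of 9 neuronal markers 3 were called higher, against 7.99% of all genes, and 1 lower. Mitochondrial genes took 0.66 to 1.06% of reads with TBOA against 1.40 to 1.87%. The part of these measures in the Egr differences was not tested.

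The part of the rise present at harvest was computed within each preparation, as the level above control in percent of the level above control in Bic of the same length. In SP TTX it was 106 ± 29.2% for Egr3, 90.7 ± 22.4% for Egr2, 70.4 ± 12.9% for Egr1 and 63.5 ± 16.2% for Egr4. With NMDA it was 9.89 ± 8.38%, 17.8 ± 9.23%, 30.5 ± 11.9% and 28.6 ± 10.99% in the same order of genes. Preparation 3 had the highest value for each gene in both conditions, and also the lowest Egr levels at 1 h of Bic. In LP TTX the part was 99.9 ± 9.13% for Egr3, 70.8 ± 9.57% for Egr2, 57.2 ± 9.34% for Egr4 and 52.1 ± 7.12% for Egr1. In LP TTX/NMDA Egr3 went to the bottom of the order, at 33.6 ± 13.2%, while Egr2 was at 78.1 ± 20.7%, Egr1 at 58.7 ± 13.8% and Egr4 at 50.9 ± 6.72%. With TBOA the means lay between 82.3 ± 10.1% for Egr3 and 93.1 ± 18.7% for Egr2. The Nab genes rose too little for such a share.

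**Figure D3:**
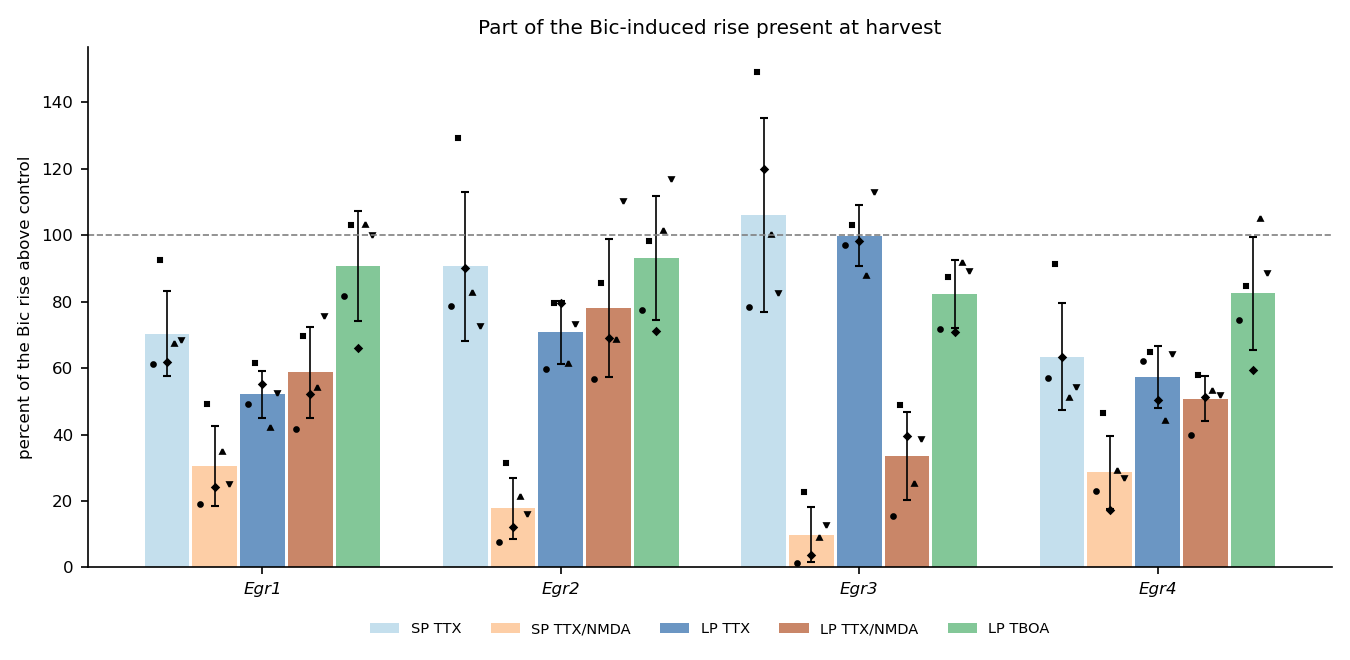
Percent of the Bic rise above control that was present at harvest (y axis, from 0) for each Egr gene and intervention, with bars for the mean, error lines for the SD over 5 preparations and a black symbol for each preparation as in the plot of levels; the dashed line is the level in Bic of the same length. Egr3 is near 100% with TTX in both protocols and falls to 9.89% in SP TTX/NMDA and 33.6% in LP TTX/NMDA.

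The balance among the Egr genes, on the scale of CPM per kilobase of exon, followed from these differences. Summed over the 4 genes the level was 67.9 in control and 852 at 2 h of Bic, while the Nab sum went from 20.9 to 26.1. The ratio of the sums went from 3.25 in control, over 24.8 at 1 h, to 32.8 at 2 h, and was 19.5 in SP TTX, 9.21 in SP TTX/NMDA, 19.8 in LP TTX and 20.6 in LP TTX/NMDA. Transcript ratios say nothing of protein amounts. Egr3 made up 29.3% of the summed level in control, 14.1% at 1 h of Bic, 23.9% in LP TTX and 11.9% in LP TTX/NMDA. The ratio of Egr3 to Egr1 lay between 0.581 and 0.967 in the 5 LP TTX libraries and between 0.237 and 0.328 in the 5 LP TTX/NMDA libraries, so these groups did not overlap. It was 0.540 to 0.943 in control and 0.342 to 0.525 at 2 h of Bic, the latter below every LP TTX library. Egr2 never exceeded 6.21% of the sum.

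**Figure D4:**
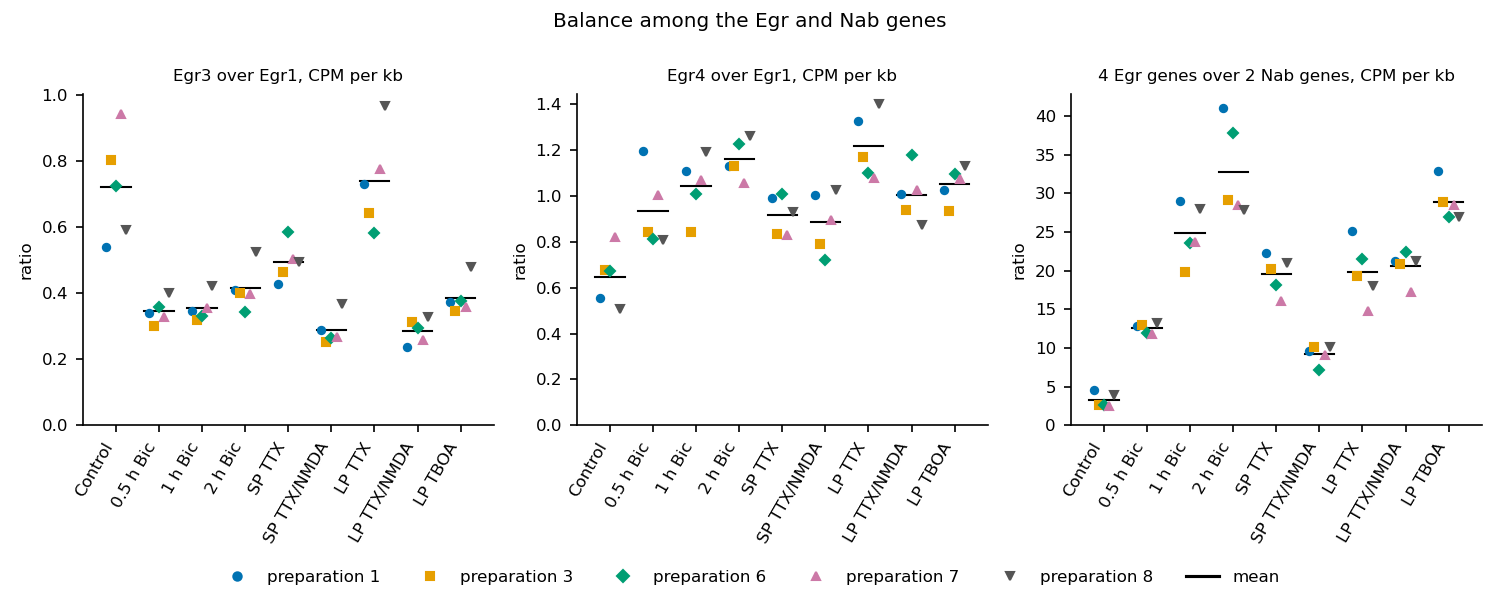
Ratios of CPM per kilobase in each library (symbols by preparation, black lines for means, linear axes from 0) for Egr3 over Egr1, Egr4 over Egr1, and the 4 Egr genes over the 2 Nab genes. Egr3 over Egr1 is near 0.74 in LP TTX and near 0.29 in LP TTX/NMDA, and the sum ratio goes from 3.25 in control to 32.8 at 2 h of Bic.

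Ordered by mean level over the 9 conditions, each of the 4 Egr genes was highest at 2 h of Bic and lowest in control, with SP TTX/NMDA and then 0.5 h of Bic next above it. Between these ends the order differed among genes. For Egr1 the order downward was 2 h Bic, LP TBOA, 1 h Bic, LP TTX/NMDA, LP TTX and SP TTX, in which 2 h Bic and LP TBOA, LP TTX/NMDA and LP TTX, and LP TTX and SP TTX did not pass as neighbours. For Egr4 it was 2 h Bic, LP TBOA, 1 h Bic, LP TTX, LP TTX/NMDA and SP TTX, in which 2 h Bic and LP TBOA, 1 h Bic and LP TTX, and LP TTX and LP TTX/NMDA did not pass. For Egr2 no pair of neighbours from 2 h Bic through LP TBOA, 1 h Bic, LP TTX/NMDA and SP TTX to LP TTX passed, their means going from 106.1 to 76.8 CPM, and the drop to 0.5 h Bic, at 32.02 CPM, did. For Egr3 the order was 2 h Bic, LP TTX, LP TBOA, SP TTX, 1 h Bic and LP TTX/NMDA, in which 2 h Bic and LP TTX, LP TTX and LP TBOA, SP TTX and 1 h Bic, and SP TTX/NMDA and Control did not pass without a block. For Nab1, from 70.0 CPM in LP TTX to 54.9 CPM in SP TTX, and for Nab2, from 32.3 CPM in LP TTX to 21.2 CPM in control, no neighbours passed by edgeR without a block.

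Across the 45 libraries, log2 CPM of Egr1 and Egr4 had a Pearson correlation of 0.986, Egr1 and Egr2 of 0.973, and Egr1 and Egr3 of 0.874. Of the Nab genes, Nab2 was nearest to Egr3 at 0.761, and Nab1 and Nab2 correlated at 0.361. After subtraction of condition means the values were 0.746, 0.841 and 0.628 for the Egr pairs, and -0.24 for Nab1 with Nab2. Nab2 was then nearest to Egr4, at 0.501, with Egr3 at 0.421. These correlations are a description, since libraries of a condition and of a preparation share their treatment, culture and depth. Among 13586 other genes with a mean of at least 1 CPM, those most like Egr1 were Fosb (0.973), Junb (0.972) and Npas4 (0.964), all activity-induced transcription factors. Those most like Egr4 were Junb (0.986), Fosb (0.980) and Gm13889 (0.977), and those most like Egr2 were Fosb (0.963), Rasl11a (0.961) and Junb (0.948). Egr3 had other neighbours, Nr4a2, an orphan nuclear receptor (0.949), Rgs4, a regulator of G protein signaling (0.946), and Rasl11b (0.945). Nab1 was nearest to Mapk6 (0.881), Inpp5f (0.868) and Ppp2ca (0.859), and Nab2 to Ets2 (0.835), Lmna (0.826) and Clba1 (0.818).

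The other genes of the pathway were taken from lists. Of the 13 genes of the ERK cascade, from Ras and Raf to the RSK and MSK kinases, 0 passed by edgeR at 0.5 or 1 h of Bic, where 0 had an unadjusted p under 0.05, and at 2 h, where 4.78% of all genes were called lower, 2 were lower, Rps6ka5 (-0.35 ± 0.08) and Nras (-0.24 ± 0.08). The list's median log2 change at 2 h was 0.04, beside -0.0020 over all genes with at least 1 CPM. In LP TTX/NMDA against LP TTX, 6 of the 13 were lower, where 11.8% of all genes were, and 2 higher, where 11.6% were. The lower ones included the kinases Braf (-0.73 ± 0.09), Rps6ka3 (-0.52 ± 0.08), Map2k1 (-0.35 ± 0.06) and Rps6ka2 (-0.38 ± 0.08). Hras (0.23 ± 0.07) and Rps6ka1 (0.36 ± 0.11) were the 2 that were higher.

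Of 8 names listed for SRF and its ternary complex and MRTF partners, 6 were matched and tested. Srf rose by 0.61 ± 0.09 at 1 h and 0.83 ± 0.08 at 2 h of Bic on the log2 scale, and Elk4 by 0.46 ± 0.09 at 2 h. In SP TTX/NMDA against SP TTX, 3 of the 6 were lower, against 3.32% of all genes, Srf (-0.72 ± 0.09), Mrtfb (-0.44 ± 0.08) and Elk4 (-0.35 ± 0.09), and the list's median was -0.25, beside 0.014 over all genes with at least 1 CPM. In LP TTX/NMDA against LP TTX, 4 were lower, against 11.8% of all genes, with Mrtfb at -1.01 ± 0.08, Srf at -0.70 ± 0.08, Elk1 at -0.37 ± 0.08 and Elk4 at -0.27 ± 0.08, and 1 was higher, against 11.6%, Elk3 at 0.89 ± 0.16.

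Of 5 phosphatases that switch off ERK and related kinases, 4 rose at 0.5, 1 and 2 h of Bic, Dusp1, Dusp4, Dusp5 and Dusp6, and Dusp2, at a mean of 1.06 CPM, did not pass. Of all genes, 0.289%, 0.965% and 4.24% were called higher at these times. At 2 h Dusp1 was up by 3.26 ± 0.10 and Dusp6 by 1.93 ± 0.10 on the log2 scale. LP TTX lowered all 4 against 2 h of Bic, where 1.62% of all genes were lower, with log2 changes of -2.23 ± 0.12 for Dusp1, -1.53 ± 0.13 for Dusp6, -0.73 ± 0.07 for Dusp4 and -0.58 ± 0.11 for Dusp5. With NMDA in the long protocol, where 11.6% of all genes were higher and 11.8% lower, Dusp1 (2.21 ± 0.11) and Dusp6 (1.20 ± 0.12) were higher than in LP TTX and Dusp4 was lower (-0.40 ± 0.11). In the short protocol the same comparison gave 4 lower, against 3.32% of all genes, with Dusp5 at -1.01 ± 0.11 and Dusp1 at -0.51 ± 0.09. The active effect differed between protocols for 3 of the 5, where 0.722% of all genes were called higher in LP than SP, Dusp1 (2.74 ± 0.17, adjusted p = 1.7e-14), Dusp6 (1.93 ± 0.16) and Dusp5 (1.21 ± 0.18), in the direction of the differences of Egr1, Egr2 and Egr4.

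Of 12 genes described as Egr targets in neurons or other cells, Arc, a regulator of AMPA receptor uptake, rose by 4.35 ± 0.14 at 0.5 h, 5.31 ± 0.16 at 1 h and 5.23 ± 0.16 at 2 h on the log2 scale, and was the only 1 called before 2 h. At 2 h the serotonin receptor gene Htr2a (0.62 ± 0.10) and Tgfb1 (0.82 ± 0.23, at a mean of 1.93 CPM) were called too, so that 3 of 12 were higher, against 4.24% of all genes. In SP TTX/NMDA against SP TTX, 4 of 12 were lower, against 3.32% of all genes. By edgeR 0 were higher, where 308 of 32229 genes were. The median there was -0.12 for the 11 with at least 1 CPM, beside 0.014 over all such genes. In LP TTX/NMDA against LP TTX, 7 of 12 were lower, against 11.8% of all genes, and 2 higher, against 11.6%, Arc (1.12 ± 0.11) and Tgfb1 (0.91 ± 0.21). Gabra4 (-0.73 ± 0.08), Syn1 (-0.40 ± 0.07) and Syn2 (-0.36 ± 0.07) were among those that were lower. In the long protocol the median of the 11 with at least 1 CPM was -0.30, beside -0.011 over all genes with at least 1 CPM.

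The 13 genes of the NuRD complex, the partner of Nab proteins, had a median log2 change of 0.06 at 2 h of Bic. Over all genes with at least 1 CPM it was -0.0020. At 2 h, 0 were higher by edgeR (2 at an unadjusted p under 0.05), against 4.24% of all genes. Called lower were 2, against 4.78% of all genes, Gatad2b (-0.46 ± 0.08) and Hdac2 (-0.26 ± 0.08). In LP TTX/NMDA against LP TTX 5 of 13 were lower, against 11.8% of all genes, Mta3 (-0.49 ± 0.07), Chd3 (-0.42 ± 0.07), Rbbp7 (-0.35 ± 0.06), Chd4 (-0.26 ± 0.07) and Mbd2 (-0.21 ± 0.08). Of 4 other zinc finger factors that bind GC-rich sites, Sp3 (-0.63 ± 0.08) and Sp1 (-0.42 ± 0.10) were lower at 2 h of Bic, where 4.78% of all genes were. In LP TTX against 2 h of Bic, where 3.03% of all genes were higher, Sp3 (0.42 ± 0.07), Sp1 (0.38 ± 0.09) and Sp4 (0.26 ± 0.08) were higher, and Wt1 stood at a mean of 0.378 CPM.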

How the data were processed

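RNA from 45 libraries (9 conditions in 5 preparations) was sequenced after directional poly(A) library construction. The authors deposited raw read counts per gene, which they had obtained by alignment to GRCm38 with STAR 2.5.4b and strand-specific counting on Ensembl annotation with featureCounts 1.6.5, leaving out reads with several positions or genes. Conditions and preparations were taken from the labels. Genes with at least 1 read in a comparison were tested with the quasi-likelihood test of edgeR 4.0.16 (TMM scaling, Benjamini-Hochberg adjustment over all genes tested, threshold 0.05, R 4.3.3), without a block, as the study's own fits were. SE is the log2 fold change divided by the root of F. Alternatives were DESeq2 1.42.0, RLE scaling, filterByExpr, a preparation block, all 45 libraries in a fit and leaving out each preparation. The labels name the preparation, and same-preparation libraries deviated together (mean r = 0.434 over 13592 genes, against -0.107 between preparations). P-values measure the spread between culture preparations. Depth ran from 11316580 to 81129276 counts, and the lowest count of a member in a library was 104 reads, for Egr2. The method was tested on simulated counts, which were drawn without an effect shared by the libraries of a preparation. Members and lists were chosen with earlier results of these data known, and the named genes are the 6 members, for each the 3 genes with the highest correlation, and genes of the lists. List genes named as changed were taken from those called in each direction (at most the 4 with the smallest adjusted p where more than 6 were called). Not all genes called are named. DNA sequences are from RefSeq, and motifs were matched exactly. The values of some genes of these lists are not reported here.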

Additional observations from a re-analysis of the deposited data

Results flagged for a closer look

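The active effect, the log2 difference between TTX/NMDA and TTX, differed between the short and the long protocol for 3 of the 4 Egr genes by the edgeR test of the difference itself. It was higher in the long protocol by 1.05 for Egr1 (adjusted p = 1.83e-06), by 2.05 for Egr2 (adjusted p = 9.04e-11) and by 0.82 for Egr4 (adjusted p = 0.00393). The protocols differ in the length of Bic before the drugs and in the length of the drugs, so these lengths cannot be told apart. None of the 54 sets of 5 values, 1 for each gene and condition, held a value past Dixon's limit, where chance gives about 5%.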

How the results depend on the processing

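Of 1320 values recomputed for the 6 genes in 22 comparisons, 1213 kept their direction and their side of the threshold, 66 lost a call, 19 gained one and 22 changed sign. The values that changed sign were called neither before nor after the change. Of these, Egr2 in LP TTX against 1 h of Bic lay farthest from 0, at -0.18, and became 0.0010 without preparation 8. It was called lower by edgeR without preparation 3 (-0.28, adjusted p = 0.0462) or 6 (-0.29, adjusted p = 0.016). With DESeq2, 126 of 132 were kept, and with RLE scaling 129. The number of genes called lower in SP TTX against 1 h of Bic, 2, became 0 with filterByExpr and 1 with all 45 libraries in a fit, in which 2 genes rather than 4 were called higher in SP TTX, and 2 rather than 4 lower in SP TTX/NMDA, against 0.5 h of Bic. In LP TBOA against LP TTX the 1 gene called lower became 0 with RLE scaling, filterByExpr or all 45 libraries. In LP TTX against 1 h of Bic the 1 called lower became 0 with DESeq2, filterByExpr or all 45 libraries, and in LP TTX/NMDA against 1 h of Bic the 3 called lower became 1 with DESeq2, RLE scaling, filterByExpr or all 45 libraries. The Nab1 value of the last comparison, -0.01, became 0.0083 with filterByExpr. The cause was not tested.

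With the preparation as a block (and filterByExpr), 8 values gained a call, 2 lost one and 2 changed sign. Counts became 1 higher in LP TTX against 2 h of Bic (Nab2), 1 lower in LP TBOA against 2 h of Bic (Egr3), 2 lower in LP TBOA against LP TTX (Egr3 and Nab2), 1 lower in LP TTX/NMDA against 1 h of Bic (Egr3), and 1 lower for the difference in active effect (Nab1). In LP TTX/NMDA against 1 h of Bic, Nab1 went to 0.0039 and Nab2 to 0.0073. The block moved no other count by over 1.5 times.

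Leaving out each preparation in turn, the genes called lower numbered 0 to 2 in LP TBOA against 2 h of Bic, 0 to 2 against LP TTX, 0 to 2 in LP TTX against 1 h of Bic and 1 to 3 in LP TTX/NMDA against 1 h of Bic. The log2 values that changed sign ranged, for Nab1, from -0.020 to 0.049 at 0.5 h of Bic, from -0.032 to 0.067 between 0.5 and 1 h, from -0.0092 to 0.061 in SP TTX/NMDA against SP TTX, from -0.062 to 0.0012 in LP TBOA against 2 h of Bic, from -0.058 to 0.059 in LP TTX/NMDA against 1 h of Bic and from -0.043 to 0.091 against control. For Nab2 they ranged from -0.058 to 0.012 in SP TTX/NMDA against 0.5 h of Bic and from -0.078 to 0.12 in LP TTX/NMDA against 1 h of Bic. For Egr3 they ranged from -0.071 to 0.091 in SP TTX against 1 h of Bic, from -0.040 to 0.029 in LP TTX against 2 h of Bic and from -0.13 to 0.042 for the difference in passive effect. For Egr2 they ranged from -0.015 to 0.13 in LP TTX/NMDA against LP TTX and from -0.29 to 0.0010 in LP TTX against 1 h of Bic.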
